A study of Homo sapiens with 8 samples.

Results

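The complement, coagulation and acute phase genes described here are 35 listed genes that code for plasma or cell-surface proteins of blood clotting, complement and inflammation. They are given by name, as genes that A549 cells or airway epithelium secrete, with no measured value in the rule, but the list was drawn up with earlier results of these data known. All 35 were found among the 60624 genes of the deposited counts, and 28 of them passed the filter on low counts, which left 18661 genes for testing. The other 7 members stayed between 0 and 9 counts in each library. Several members, such as CD46, CD55, CD59 and THBD, are known to stay on the cell surface rather than to be secreted.

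The A549 line is an established cell line from a human lung adenocarcinoma, described as having features of alveolar type 2 cells. Indisulam is a sulfonamide that brings the splicing factor RBM39 to a ubiquitin ligase and so leads to its degradation, and SPHINX31 is an inhibitor of the splicing kinase SRPK1. The 4 groups were untreated A549 cells, cells given 0.5 µM indisulam, cells given 5 µM SPHINX31 and cells given both (the combination), for 24 h, all grown in RPMI with 10% FBS. These doses and this time are taken from the methods described for A549 cells. The treatment label deposited with all 8 libraries instead gives 2 µM indisulam and 18 h. Whether the untreated cells received the solvent is not given in the sources used here. Each group had 2 libraries that are technical replicates of 1 cell line, so that the p-values measure only the spread between these libraries and not that between independent treatments. Polyadenylated RNA was sequenced as stranded, paired-end libraries, and 51727369 to 63186989 counts per library fell on genes. Reads on no annotated feature took 3.94% to 4.34% of the recorded reads in untreated libraries and on average 4.99% with indisulam and 5.37% with the combination, and their part in the results was not tested.

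Plasma proteins of these families are made mainly by the liver, where interleukin 6 acting through STAT3, and factors of the C/EBP family, raise many of them during the acute phase response. Fibrinogen, the precursor of the fibrin clot, is built from pairs of 3 chains encoded by neighbouring genes. Complement is a cascade of proteases that marks and lyses microbes, and host cells keep it off their own surface with CD46, CD55 and CD59. Lung epithelial cells are known to make some of these proteins locally, and A549 cells are known to express fibrinogen chains.

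The epithelial keratin gene KRT8 was high in each library, between 3474 and 4103 CPM (read counts scaled by the TMM-adjusted library size), and all 7 epithelial markers passed the filter. Of the alveolar type 2 markers, the surfactant gene SFTPB had no count in any library and SFTPC reached at most 0.3095 CPM, while the lipid transporter ABCA3 was between 76.4 and 100.2 CPM. The summed level of the 9 alveolar type 2 markers was 78.0 to 102.1 CPM and was nearly all from ABCA3. Summed leukocyte, endothelial and fibroblast markers were at most 0.402, 2.68 and 5.10 CPM. The hepatocyte markers ALB, APOA1 and TTR stayed at or under 0.258 CPM, and the 7-gene hepatocyte sum of 325.9 to 592.8 CPM was carried by CPS1, a urea cycle enzyme gene. CPS1 moved with the groups, with 582.5 and 592 CPM in untreated, 438 and 429.7 in indisulam, 509 and 516 in SPHINX31 and 325 and 347 in combination libraries. The summed epithelial markers were 9892 to 9969 CPM in untreated and 8506 to 9295 CPM in treated libraries, and the part of these marker levels in the results was not tested.

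RBM39 transcript levels were 153.9 and 156.8 CPM in untreated, 361 and 360.3 in indisulam, 166 and 184 in SPHINX31 and 373 and 392 in combination libraries. They were therefore higher in the 4 libraries with indisulam than in the other 4. Since indisulam acts on the RBM39 protein, this transcript does not check the treatment directly. SRPK1, whose kinase activity SPHINX31 inhibits, had 127.5 and 129.6 CPM in untreated and 103.9 and 100.8 in indisulam libraries. It had 118.2 and 131.3 CPM in SPHINX31 and 109.6 and 109.0 in combination libraries. The 4 libraries with indisulam were thus below the other 4.

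The members differed widely in level, and the fibrinogen chains were at the top. Per kb of merged exons, mean levels over the 8 libraries were 215 CPM for FGA, 209.6 for FGG and 173 for FGB, and 99.1% to 99.3% of tested genes were lower. FGL1, a fibrinogen-like protein, followed with 84.9 CPM per kb, and then, by mean over the groups, the urokinase gene PLAU with 59.8, the siderophore-binding lipocalin LCN2 with 32.3 and the Kunitz-type protease inhibitor TFPI2 with 29.9. C1S, C3, APOH, CD55, C1R, CD46 and TFPI formed a middle band between 15.3 and 24.9 CPM per kb. The order changed with the group, since in untreated cells TFPI2 (38.1 CPM per kb) was above LCN2 (27.9) and FGG (219.9) above FGA (202.6). In the middle band it also changed between libraries, and neighbours such as CD46 and TFPI or C1S and C3 had overlapping ranges. CD59, C5, PLAUR, PROS1, THBD, F2, F3 and SERPINA1 were between 1.35 and 6.63, and F5, CFI, CFB, PROC and PLAT below 0.658 or at it. TF, the transferrin gene, passed the filter with only 5 to 13 counts per library.

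**Figure D1:**
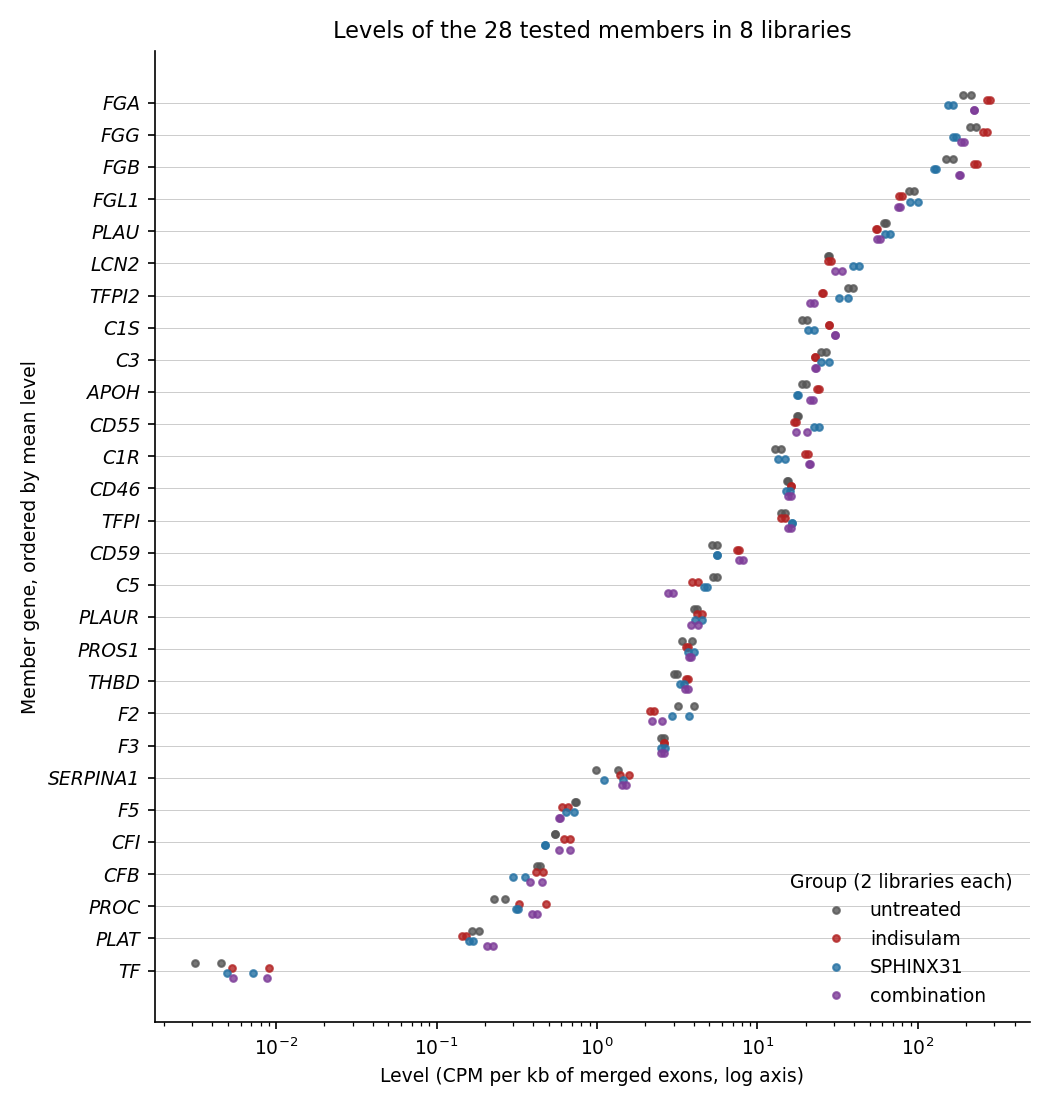
Levels of the 28 tested member genes (rows, ordered by mean) in CPM per kb of merged exons on a log axis, with 1 point per library and 1 colour per group. The fibrinogen genes FGA, FGG and FGB are at the top with means of 215, 209.6 and 173 CPM per kb, and TF is at the bottom with 5 to 13 counts per library.

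The 3 fibrinogen genes lie side by side on chromosome 4 of GRCh38. FGB (ENSG00000171564, plus strand) spans 154563011 to 154572807, FGA (ENSG00000171560, minus strand) 154583126 to 154590742 and FGG (ENSG00000171557, minus strand) 154604134 to 154612967. Gaps of 10318 bases between FGB and FGA and of 13391 bases between FGA and FGG separate them. Since the 3 genes moved together in part of the comparisons, their proximal promoters are shown, taken from RefSeq on GRCh38.p14. The 250 bases before the start of FGA (chr4:154590743-154590992, minus strand) and of FGB (chr4:154562761-154563010, plus strand) overlap no annotated exon. For FGG only 27 bases, at positions -171 to -145 from the start of its canonical transcript (chr4:154612801-154612827, minus strand), are shown, because this stretch lies in first exons of other annotated FGG transcripts. Capitals mark matches, on either strand, to the letters searched for STAT3 (TTCNNNGAA), C/EBP (TTGCNNAA) and the core of the interleukin 6 response element (CTGGGAA).
FGA: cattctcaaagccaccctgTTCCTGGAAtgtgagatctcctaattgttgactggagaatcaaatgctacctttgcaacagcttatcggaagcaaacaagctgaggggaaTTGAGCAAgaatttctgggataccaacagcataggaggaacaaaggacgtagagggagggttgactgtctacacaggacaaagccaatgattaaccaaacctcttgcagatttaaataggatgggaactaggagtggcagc
FGB: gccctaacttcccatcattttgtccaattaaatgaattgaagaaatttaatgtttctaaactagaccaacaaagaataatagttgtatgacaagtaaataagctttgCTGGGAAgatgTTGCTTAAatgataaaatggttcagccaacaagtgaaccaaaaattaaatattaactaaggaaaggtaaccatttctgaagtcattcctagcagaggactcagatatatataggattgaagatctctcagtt
FGG: tgtgcaaaatCTGGGAAcctgacagta

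Positions are counted back from -1, the base before the transcript start. In FGA the STAT3 letters lie at -231 to -223 and the C/EBP letters, on the opposite strand, at -141 to -134. FGB carried the interleukin 6 response element core at -143 to -137 and the C/EBP letters at -132 to -125, and FGG the core at -161 to -155. No 2 matches overlapped, and these 3 genes held no match to the TATA box (TATAAA). A RefSeq window at the start of the canonical transcript was found for 25 of the 35 members. It was not found for FGL1, C1S, C3, SERPING1, SERPINC1, A2M, THBD, PLAT, HP and APOB. The C/EBP letters were in 7 of the 25 windows (C1R, FGA, FGB, LCN2, PLAU, PLAUR and TF) and in 9.05% of 35116 windows of the same length. STAT3 letters were in 4 (CD59, CFB, FGA and PROS1) against 6.57%, the interleukin 6 response element core in 2 (FGB and FGG) against 9.15% and the TATA box in 2 (CFB and F3) against 10.7%. A match of letters is a description of the window and does not show that a factor binds there.

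With indisulam, the fibrinogen chains FGA, FGB and FGG, the complement proteases C1R and C1S and the complement regulator CD59 were among the tested members that rose, and prothrombin (F2), C5 and TFPI2 among those that fell. With SPHINX31, the fibrinogen chains fell, and CD55, TFPI and LCN2 rose. Log2 fold changes and adjusted p-values are from 1 edgeR quasi-likelihood fit over the 8 libraries, with Benjamini-Hochberg adjustment over the 18661 tested genes, and a gene passed at an adjusted p under 0.05. With indisulam 15 of the 28 members passed against untreated cells, or 53.6%, where 43.7% of all tested genes passed. Of these, 9 were higher and 6 lower, where 20.1% of all tested genes were higher and 23.5% lower. The median log2 fold change of the members was 0.05, and that of all tested genes was 0.00. With SPHINX31 6 members passed, or 21.4% against 8.61% of all tested genes. There were 3 higher and 3 lower, where 4.94% of all tested genes were higher and 3.67% lower, and the medians were 0.05 and -0.01. The 3 lower ones were the neighbouring fibrinogen genes. With the combination 17 members passed, or 60.7% against 50%, with medians of 0.12 and 0.00. They were 9 higher and 8 lower, where 23.8% of all tested genes were higher and 26.3% lower. Scaling by total counts alone turned this last split into 11 higher and 6 lower, and a correction for GC content into 6 higher and 8 lower, and the correction turned the split with SPHINX31 into 2 higher and 5 lower. For all tested genes the same correction moved the split with SPHINX31 from 921 higher and 685 lower to 992 and 2046, and total counts alone to 1341 and 515. Without untreated replicate 1, fewer members and fewer of all tested genes passed with SPHINX31. The same held for the combination without untreated replicate 2 or combination replicate 2. Each of these fits left 1 library in a group. Members moved in both directions in each of the 3 comparisons with untreated cells. Their median absolute log2 fold change was 0.25 with indisulam, 0.13 with SPHINX31 and 0.22 with the combination. For all tested genes it was 0.26, 0.14 and 0.30. The members thus had larger shares that passed but no larger typical change.

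The combination against indisulam alone asks what SPHINX31 adds. The fibrinogen chains FGA, FGB and FGG and C5 passed, all lower. This is 4 of the 28 members or 14.3%, where 7.5% of all tested genes passed, 4.32% lower and 3.17% higher. The chains are neighbouring genes, so most of this share rests on a single locus. The median absolute log2 fold change was 0.08 for the members and 0.13 for all tested genes. No member passed in the higher direction with edgeR, and none with DESeq2, while 4 were higher at an unadjusted p under 0.05. With scaling by total counts alone 7 passed, 3 of them higher (TFPI, PLAT and LCN2), and the split of all tested genes turned from 592 higher and 807 lower to 942 and 498. Of all tested genes 2717 passed with a GC correction and 440 without combination replicate 2. Against SPHINX31 alone, 16 members passed in the combination, 8 higher and 8 lower, or 57.1%, where 49.9% of all tested genes passed, 23.4% higher and 26.5% lower. There the median absolute log2 fold change was 0.31 for the members and 0.30 for all tested genes.

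**Figure D2:**
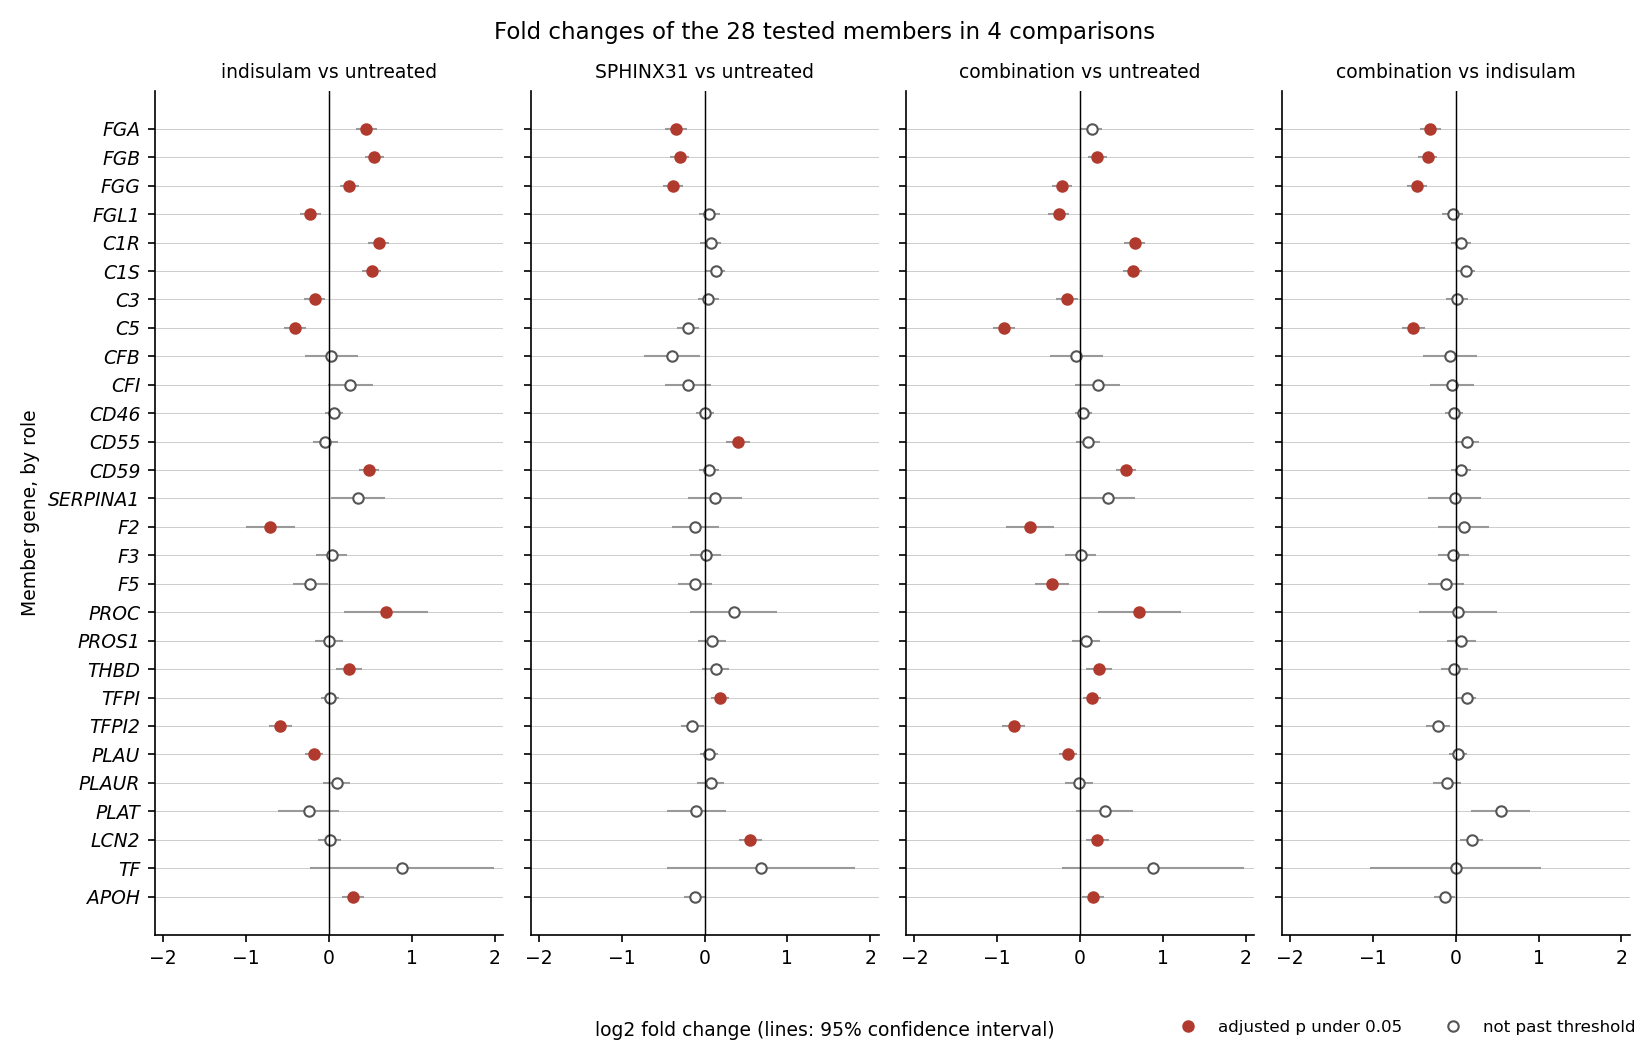
Log2 fold changes (horizontal axis, with 95% confidence intervals as lines) of the 28 tested members, by role, in 4 comparisons, with filled points for an adjusted p under 0.05. With indisulam and with the combination 15 and 17 members passed in both directions, with SPHINX31 6 passed, and in the combination against indisulam the 4 that passed (FGA, FGB, FGG and C5) were all lower.

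FGA was higher with indisulam and lower with SPHINX31. Its level was 839.7 and 748 CPM in untreated, 1063 and 1102 in indisulam, 650.5 and 599.9 in SPHINX31 and 877 and 870.3 in combination libraries. The 2 indisulam libraries were the highest and the 2 SPHINX31 libraries the lowest of the 8, with no overlap between any of the 4 groups. With indisulam FGA rose by 0.45 on the log2 scale (95% confidence interval 0.32 to 0.57, adjusted p = 4.4e-05), and with SPHINX31 it fell by 0.34 (interval -0.47 to -0.22, adjusted p = 0.00314). The combination did not pass against untreated cells (log2 fold change 0.14, interval 0.01 to 0.27, adjusted p = 0.0652). It passed under 7 alternatives, such as scaling by total counts alone (adjusted p = 0.0129). In bulk RNA, fewer cells with a transcript and less of the transcript per cell cannot be told apart.

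FGB followed the same order of groups. Its levels were 719.8 and 650.3 CPM in untreated, 982 and 1019 in indisulam, 564 and 549 in SPHINX31 and 785 and 799 in combination libraries, again with no overlap between groups. It rose by 0.55 with indisulam (interval 0.43 to 0.66, adjusted p = 3.03e-06), fell by 0.30 with SPHINX31 (interval -0.41 to -0.19, adjusted p = 0.00372) and rose by 0.21 with the combination (interval 0.10 to 0.32, adjusted p = 0.0049).

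FGG was lower in the combination than in untreated cells. Its levels were 826 and 758 CPM in untreated, 912 and 966 in indisulam, 624 and 592 in SPHINX31 and 665 and 695 in combination libraries. The combination libraries thus lay below untreated ones, whereas for FGA and FGB they lay above. FGG rose by 0.25 with indisulam (interval 0.13 to 0.36, adjusted p = 0.00269), fell by 0.38 with SPHINX31 (interval -0.50 to -0.26, adjusted p = 0.00101) and fell by 0.22 with the combination (interval -0.34 to -0.10, adjusted p = 0.00459). The ratio of FGA to FGG CPM within a library was 1.02 and 0.987 in untreated, 1.17 and 1.14 in indisulam, 1.04 and 1.01 in SPHINX31 and 1.32 and 1.25 in combination libraries. This ratio was thus higher in each of the 4 libraries with indisulam than in any library without it, a difference that was not tested. The ratio of FGA to FGB stayed between 1.08 and 1.17 in all 8 libraries.

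All 3 chains fell when SPHINX31 was added to indisulam. Against indisulam alone, FGA fell by 0.31 (adjusted p = 0.0067), FGB by 0.34 (adjusted p = 0.0021) and FGG by 0.47 (adjusted p = 0.000315) in the combination. Together the 3 chains took 0.174% to 0.186% of the gene counts in SPHINX31, 0.213% to 0.233% in untreated, 0.238% to 0.240% in combination and 0.293% to 0.304% in indisulam libraries. Some of these calls rested on single libraries. Without untreated replicate 1 the fall with SPHINX31 no longer passed for FGA (adjusted p = 0.064) and FGB (adjusted p = 0.0823), while FGA with the combination passed (adjusted p = 0.0189), and FGG with the combination lost its call without untreated replicate 1 (adjusted p = 0.0846) or combination replicate 1 (adjusted p = 0.0594). FGG with indisulam and FGB with the combination were lost without untreated replicate 2 (adjusted p = 0.0541 and 0.102), FGB with the combination also with a GC correction (adjusted p = 0.05002), and FGA against indisulam without combination replicate 1 or 2 (adjusted p = 0.0596 and 0.0737).

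FGL1, which was chosen for per-library values after its values were seen, is a hepatokine that resembles fibrinogen chains but is not part of the clot. It had 312 and 289 CPM in untreated, 252 and 262 in indisulam, 329 and 296 in SPHINX31 and 248 and 254 in combination libraries. The 4 libraries with indisulam were thus the lowest, and untreated and SPHINX31 libraries overlapped. FGL1 fell by 0.23 with indisulam (adjusted p = 0.00696) and by 0.26 with the combination (adjusted p = 0.00232), and its log2 fold change with SPHINX31 was 0.06 (interval -0.07 to 0.18, adjusted p = 0.598). The call with indisulam was lost without untreated replicate 1 or indisulam replicate 1 (adjusted p = 0.096 and 0.053).

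**Figure D3:**
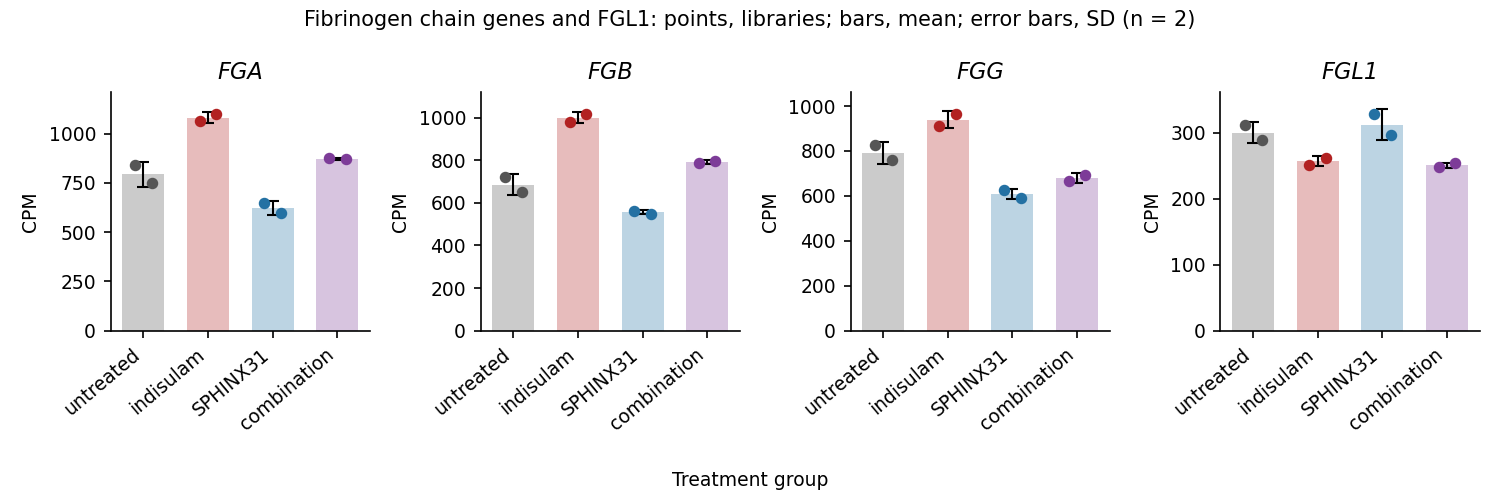
Levels in CPM of the fibrinogen chain genes FGA, FGB and FGG and of FGL1 by treatment group, with points for the 2 libraries of each group, bars for their mean and error bars for the SD (n = 2). FGA, FGB and FGG are highest with indisulam and lowest with SPHINX31, and FGG in the combination (665 and 695 CPM) lies below untreated cells (826 and 758 CPM).

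C1R and C1S encode the serine proteases of the first complement component, and both were higher wherever indisulam was present. C1R (ENSG00000159403, chromosome 12, 7080214 to 7092540, minus strand) had 80.8 and 74.8 CPM in untreated, 116 and 120.0 in indisulam, 85.9 and 78.3 in SPHINX31 and 124 and 122 in combination libraries. C1S (ENSG00000182326, chromosome 12, 6988259 to 7071032, plus strand), which lies 9181 bases away, had 168 and 157 CPM in untreated, 232 and 233 in indisulam, 186 and 172 in SPHINX31 and 254 and 250.7 in combination libraries. For both genes the 4 libraries with indisulam lay above the 4 without it. C1R rose by 0.60 with indisulam (interval 0.47 to 0.72, adjusted p = 3.36e-06) and by 0.66 with the combination (interval 0.53 to 0.79, adjusted p = 9.08e-07). C1S rose by 0.51 (interval 0.40 to 0.63, adjusted p = 4.99e-06) and by 0.63 (interval 0.52 to 0.75, adjusted p = 5.12e-07). With SPHINX31 alone neither passed, with log2 fold changes of 0.08 (interval -0.05 to 0.20) for C1R and 0.14 (interval 0.02 to 0.25) for C1S. The ratio of C1S to C1R CPM stayed between 1.94 and 2.2 in all 8 libraries. C1R shares 672 exon bases (11.6% of its exon length) with its paralog neighbour C1RL on the same strand. C1RL fell with indisulam while C1R rose, and how reads on the shared bases were counted is not given in the sources used here.

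C5, the precursor of the C5a anaphylatoxin and of the lytic complex, was the member that fell most with the combination. C5 (ENSG00000106804, chromosome 9, 120932987 to 121075195, minus strand) had 89.7 and 94.4 CPM in untreated, 72.2 and 66.2 in indisulam, 78.0 and 81.9 in SPHINX31 and 46.6 and 50.6 in combination libraries. The combination libraries were the lowest and the untreated ones the highest, with no overlap between groups. C5 fell by 0.41 with indisulam (interval -0.54 to -0.28, adjusted p = 0.000126), by 0.92 with the combination (interval -1.06 to -0.79, adjusted p = 7.01e-08) and by 0.51 in the combination against indisulam (interval -0.65 to -0.38, adjusted p = 0.0004). With SPHINX31 alone its log2 fold change was -0.20 (interval -0.34 to -0.07, adjusted p = 0.0562), and this passed under 8 of the alternatives, among them DESeq2 (adjusted p = 0.0417) and leaving out indisulam replicate 1 or 2 (adjusted p = 0.0406 and 0.0405).

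C3, the central component of the cascade, fell slightly with indisulam (-0.17, adjusted p = 0.0305) and with the combination (-0.16, adjusted p = 0.0401) on levels of 263 to 326 CPM over the 8 libraries. Both calls were lost without untreated replicate 1 (adjusted p = 0.254 and 0.304), the first also without indisulam replicate 1 or 2 (adjusted p = 0.107 and 0.0919) and the second without combination replicate 1 or 2 (adjusted p = 0.167 and 0.1095), with DESeq2 (adjusted p = 0.0537) and with scaling by total counts alone (adjusted p = 0.159). CFB, a protease of the alternative pathway, was at 1.59 to 2.44 CPM and CFI, which cleaves C3b, at 2.51 to 3.63 CPM. Neither passed against untreated cells. CFI was higher in the combination than in SPHINX31 cells (0.41, adjusted p = 0.0165), a call lost with DESeq2 (adjusted p = 0.0681) and without SPHINX31 replicate 1 or 2 or combination replicate 1 (adjusted p = 0.0512, 0.0571 and 0.122). On the same strand, 42.3% of the exon bases of CFB and 29.4% of those of CFI are shared with annotated readthrough genes that had no counts. How reads on these shared bases were counted is not given in the sources used here, so the levels of CFB and CFI are uncertain.

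Of the membrane regulators of complement, CD59 was higher with indisulam and CD55 with SPHINX31, while CD46 did not pass in any comparison with untreated cells. CD59 and CD55 were singled out after their values were seen. CD59, which blocks the lytic complex, had 59.4 and 54.7 CPM in untreated, 78.3 and 81.6 in indisulam, 59.3 and 59.3 in SPHINX31 and 85.8 and 81.5 in combination libraries. The 4 libraries with indisulam lay above the other 4. CD59 rose by 0.49 with indisulam (interval 0.36 to 0.61, adjusted p = 1.54e-05) and by 0.55 with the combination (interval 0.43 to 0.67, adjusted p = 3.35e-06), and its log2 fold change with SPHINX31 was 0.06 (interval -0.07 to 0.18). CD55, which speeds the decay of the C3 convertases, had 180.3 and 183 CPM in untreated, 173 and 179 in indisulam, 249 and 230.5 in SPHINX31 and 178 and 209.7 in combination libraries. The 2 SPHINX31 libraries were the highest, and the combination libraries overlapped untreated ones. CD55 rose by 0.40 with SPHINX31 (interval 0.25 to 0.55, adjusted p = 0.0031) and fell by 0.31 in the combination against SPHINX31 (adjusted p = 0.00213). In the combination its log2 fold change against untreated cells was 0.09 (interval -0.06 to 0.24, adjusted p = 0.284), which passed without combination replicate 1 (0.22, adjusted p = 0.0181). CD46, a cofactor for the cleavage of C3b, stayed between 232 and 251 CPM.

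Among the clotting factors, F2, which encodes prothrombin, was lower with indisulam. F2 (ENSG00000180210, chromosome 11, 46719196 to 46739506, plus strand) had 10.2 and 8.08 CPM in untreated, 5.43 and 5.77 in indisulam, 9.52 and 7.42 in SPHINX31 and 6.42 and 5.56 in combination libraries. The 4 libraries with indisulam lay below the other 4, and untreated and SPHINX31 libraries overlapped. F2 fell by 0.71 with indisulam (interval -1.001 to -0.41, adjusted p = 0.001) and by 0.61 with the combination (interval -0.90 to -0.32, adjusted p = 0.00209), with 294 to 628 counts per library behind these values. With SPHINX31 its log2 fold change was -0.11 (interval -0.39 to 0.17, adjusted p = 0.656). F5, the cofactor of factor Xa, was between 5.40 and 6.96 CPM and fell with the combination (-0.34, adjusted p = 0.0106), a call lost without untreated replicate 2 or combination replicate 2 (adjusted p = 0.0575 and 0.0551). With indisulam the log2 fold change of F5 was -0.22 (interval -0.43 to -0.02, adjusted p = 0.0762), which passed with a GC correction (adjusted p = 0.0303). F3, the tissue factor that starts coagulation, stayed between 7.20 and 7.71 CPM, and its log2 fold changes against untreated cells were within intervals that include 0.

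The anticoagulant members did not move as a group. TFPI2 (ENSG00000105825, chromosome 7, 93885396 to 93890753, minus strand), which inhibits plasmin and other matrix-bound proteases, had 89.6 and 96.9 CPM in untreated, 61.8 and 62.2 in indisulam, 79.0 and 89.1 in SPHINX31 and 52.1 and 54.9 in combination libraries. The 4 libraries with indisulam lay below the other 4. TFPI2 fell by 0.59 with indisulam (interval -0.73 to -0.45, adjusted p = 8.73e-06) and by 0.80 with the combination (interval -0.94 to -0.66, adjusted p = 3.84e-07). Its log2 fold change with SPHINX31 was -0.15 (adjusted p = 0.172), which passed with a GC correction (-0.19, adjusted p = 0.0141). Without SPHINX31 replicate 2 it was -0.24. Against indisulam alone it was -0.21 in the combination (adjusted p = 0.0678), and also -0.21 without SPHINX31 replicate 1 or 2. This passed with DESeq2 (adjusted p = 0.0404) and with a GC correction (-0.23, adjusted p = 0.00456).

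PROC, the gene of protein C, which inactivates factors Va and VIIIa, was expressed at a low level. PROC (ENSG00000115718, chromosome 2, 127418427 to 127429242, plus strand) had 0.663 and 0.570 CPM in untreated, 0.808 and 1.20 in indisulam, 0.775 and 0.803 in SPHINX31 and 1.05 and 0.978 in combination libraries, from 34 to 61 counts. The untreated libraries were the lowest, and the 2 indisulam libraries lay on either side of the combination libraries. PROC rose by 0.68 with indisulam (interval 0.18 to 1.19, adjusted p = 0.031) and by 0.71 with the combination (interval 0.21 to 1.22, adjusted p = 0.0208). The first call was lost with DESeq2 (adjusted p = 0.122) and without untreated replicate 1 or 2 or indisulam replicate 2 (adjusted p = 0.0645, 0.153 and 0.287, with 0.40 on the log2 scale in the last case). The second was lost with DESeq2 (adjusted p = 0.0993) and without untreated replicate 2 or combination replicate 1 or 2 (adjusted p = 0.118, 0.0905 and 0.0556).

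THBD, thrombomodulin, the membrane receptor through which thrombin activates protein C, was between 12.2 and 15.0 CPM. It rose with indisulam (0.24, adjusted p = 0.0179) and with the combination (0.23, adjusted p = 0.021). The call with indisulam was lost without untreated replicate 1 or 2 or indisulam replicate 2 (adjusted p = 0.0501, 0.1302 and 0.0804), and that with the combination without untreated replicate 1 or 2 or combination replicate 1 (adjusted p = 0.0532, 0.145 and 0.0836) and with DESeq2 (adjusted p = 0.0512). TFPI, the inhibitor of the tissue factor complex, was between 163 and 192 CPM and rose with SPHINX31 (0.19, adjusted p = 0.0374) and the combination (0.15, adjusted p = 0.03). Its call with SPHINX31 was lost without each of the 4 libraries compared in turn (adjusted p up to 0.296), and that with the combination without untreated replicate 2 or combination replicate 2 (adjusted p = 0.244 and 0.172). Both were also lost with a GC correction (adjusted p = 0.108 and 0.206). PROS1, the cofactor of protein C, was between 17.7 and 21.3 CPM and did not pass against untreated cells.

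Of the plasminogen activation genes, PLAU passed and PLAUR and PLAT did not pass against untreated cells. PLAU, the urokinase activator, was between 161 and 196 CPM and fell with indisulam (-0.18, adjusted p = 0.0127) and the combination (-0.15, adjusted p = 0.0277). The first call was lost without untreated replicate 2 or indisulam replicate 1 (adjusted p = 0.114 and 0.086). The second was lost without untreated replicate 1 or 2 or combination replicate 1 (adjusted p = 0.0627, 0.186 and 0.184), and with scaling by total counts alone (adjusted p = 0.142). PLAUR, its receptor, was between 17.3 and 20.2 CPM, and the tissue activator gene PLAT between 1.12 and 1.75 CPM. An antisense neighbour, C10orf55, with a mean of 60.0 counts, covers 31.0% of the exon bases of PLAU.

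LCN2, an acute phase lipocalin of epithelium and neutrophils that binds bacterial siderophores, was higher with SPHINX31 and was likewise singled out after its values were seen. LCN2 (ENSG00000148346, chromosome 9, 128149071 to 128153453, plus strand) had 44.2 and 44.8 CPM in untreated, 44.1 and 45.7 in indisulam, 68.2 and 62.6 in SPHINX31 and 48.7 and 53.9 in combination libraries. The SPHINX31 libraries were the highest, the combination libraries next, and untreated and indisulam libraries overlapped. LCN2 rose by 0.55 with SPHINX31 (interval 0.42 to 0.69, adjusted p = 0.000191) and by 0.20 with the combination (interval 0.07 to 0.34, adjusted p = 0.017), and its log2 fold change with indisulam was 0.01 (interval -0.13 to 0.15). In the combination it was 0.35 lower than with SPHINX31 alone on the log2 scale (adjusted p = 0.000483). The call with the combination was lost without untreated replicate 1 or 2 or combination replicate 2 (adjusted p = 0.0901, 0.0639 and 0.173).

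APOH, a phospholipid-binding plasma glycoprotein, was between 23.6 and 32.1 CPM and rose with indisulam (0.29, adjusted p = 0.00158) and with the combination (0.16, adjusted p = 0.0433). The latter was lost without any 1 of the 4 libraries compared (adjusted p from 0.0511 to 0.274) and with DESeq2 (adjusted p = 0.0845). SERPINA1, the gene of alpha-1 antitrypsin, the main inhibitor of neutrophil elastase, was between 4.80 and 7.70 CPM. Its log2 fold changes were 0.35 with indisulam and 0.34 with the combination, and neither passed. Without untreated replicate 1, whose partner had the lowest level of the 8 libraries, both passed (0.60, adjusted p = 0.0127, and 0.59, adjusted p = 0.0111). SERPINA1 with indisulam also passed without indisulam replicate 2 (adjusted p = 0.0481), and with the combination without indisulam replicate 1 or 2 (adjusted p = 0.0497 and 0.0496). Both passed when each gene with at least 1 count was tested (adjusted p = 0.00807 and 0.00962).

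The 7 members under the filter were SERPING1, SERPINA3, SERPINC1, SERPIND1, A2M, HP and APOB, which code for the C1 inhibitor, antichymotrypsin, antithrombin, heparin cofactor II, alpha-2-macroglobulin, haptoglobin and apolipoprotein B. SERPING1 had 1 to 9 counts per library, A2M 0 to 6 and SERPINA3 0 to 3. SERPINC1 and HP had at most 2, APOB at most 1 and SERPIND1 none in the 8 libraries. The counts of these genes were too low for testing with the filter used. SERPINA3 shares 1585 exon bases (31.7% of its exon length) with another annotated gene on the same strand, which had a mean of 0.75 counts. How reads on these shared bases were counted is not given in the sources used here, so the level of SERPINA3 is uncertain. Of the 5 members that inhibit proteases as serpins, SERPINA1 alone passed the filter.

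Indisulam against untreated cells and the combination against SPHINX31 share no library and both ask what indisulam does. Of the members, 13 passed in both with the same sign. APOH, C1R, C1S, CD59, FGA, FGB and FGG were higher, and C3, C5, F2, FGL1, PLAU and TFPI2 lower. These are 86.7% of the members that passed in the first and 81.2% of those in the second comparison, and for all tested genes the shares were 83.2% and 72.8%. Not each of these calls held under the alternatives. In the combination against SPHINX31 the call of FGG (0.16) was lost with a GC correction (0.12, adjusted p = 0.119). Without SPHINX31 replicate 1 the log2 fold change in that comparison was -0.10 for C3, -0.30 for F2 and -0.14 for PLAU. With all libraries these values were -0.20, -0.50 and -0.19. None of these calls held in that fit, which left 1 SPHINX31 library. In the combination against SPHINX31, the calls of FGG, C3, F2 and PLAU were also lost without other single libraries. For SPHINX31 against untreated cells and the combination against indisulam, which also share no library, the 3 fibrinogen chains passed in both, lower each time. They are 50% and 75.0% of the members that passed, against 39.9% and 45.7% for all tested genes. Being neighbouring genes that moved together, the chains do not count as independent members, and these member shares rest on them alone.

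**Figure D4:**
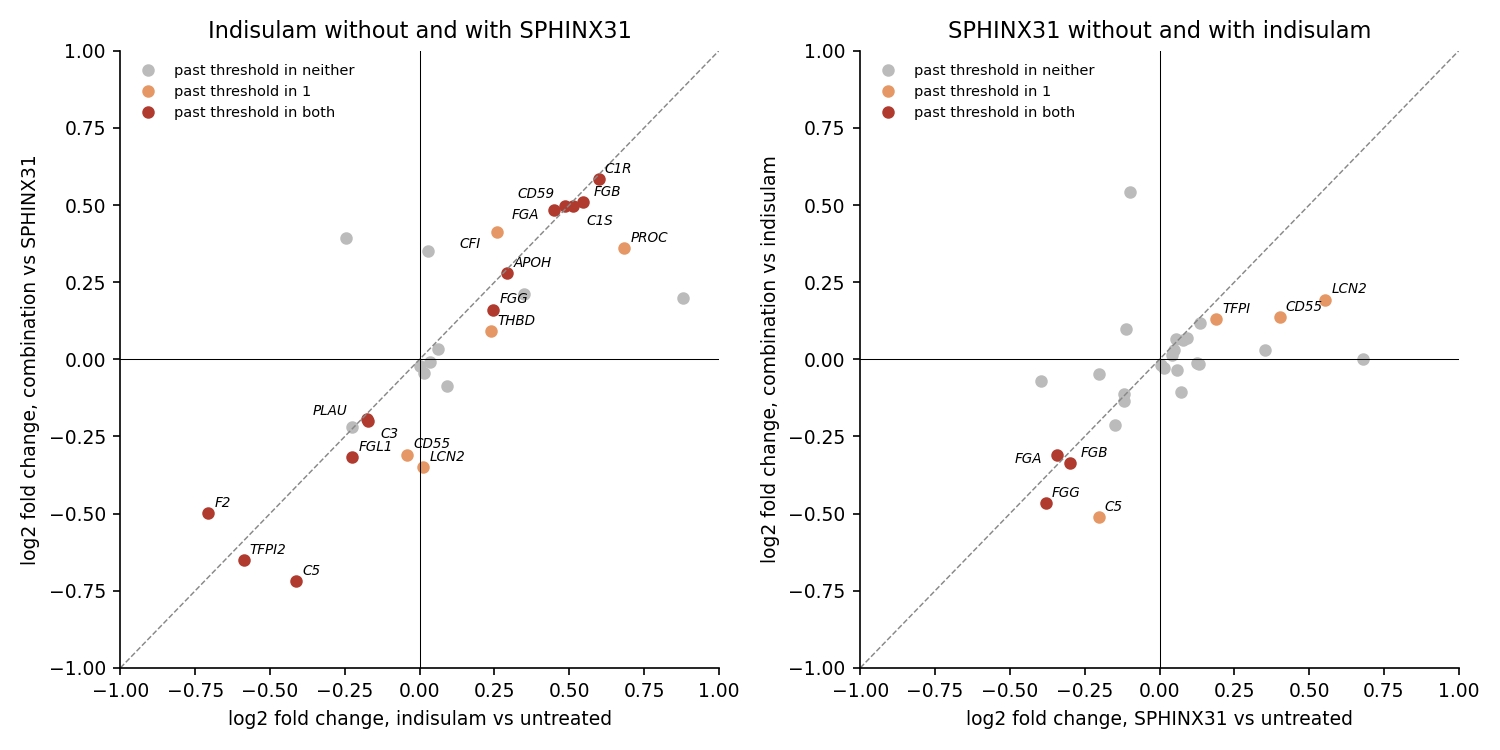
Log2 fold changes of the 28 tested members in 2 pairs of comparisons that share no library: indisulam with and without SPHINX31 (left) and SPHINX31 with and without indisulam (right), with the dashed line for equal values. On the left 13 members passed in both comparisons (red), all with the same sign, and on the right the 3 fibrinogen chains did.

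The interaction, which tests whether the effect of SPHINX31 differs with and without indisulam, passed for no member and for 0.0% of all tested genes with edgeR. At an unadjusted p under 0.05 it was 4 members and 1584 of all tested genes, and DESeq2 called no member and 31 genes. The 4 members were LCN2 (-0.36, interval -0.56 to -0.17, adjusted p = 0.348), C5 (-0.31, interval -0.50 to -0.12, adjusted p = 0.411), CD55 (-0.27, interval -0.48 to -0.06, adjusted p = 0.505) and PLAT (0.64, interval 0.13 to 1.15, adjusted p = 0.505). Their different effects in the single and combined treatments were thus not shown to differ by this test. LCN2 passed when each gene with at least 1 count was tested (adjusted p = 0.0446).

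The rest of these pathways was read from lists of other genes, whose counts stand beside the 43.7%, 8.61% and 50% of all tested genes that passed with indisulam, SPHINX31 and the combination and the median log2 fold changes of 0.00, -0.01 and 0.00. Of 38 further complement genes 17 were tested, and 5 of them passed with indisulam, all lower, a smaller share than that of all tested genes, with a list median of 0.08. These included the protease C1RL, which had 95.5 and 93.9 CPM in untreated and 38.3 and 35.8 in indisulam libraries (-1.35, adjusted p = 2.02e-08), and the receptor of C5a, C5AR1, with 6.33 and 6.22 against 3.01 and 2.55 CPM (-1.17, adjusted p = 3.03e-06). None of the 17 was higher with indisulam, by DESeq2 or at an unadjusted p under 0.05. With the combination 4 were higher and 4 lower (1 higher and 4 lower with DESeq2), C1RL (-1.33) and C5AR1 (-1.16) among the lower ones, and with SPHINX31 none passed with either tool or at an unadjusted p under 0.05.

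Of 32 further coagulation and fibrinolysis genes 22 were tested, with 5 higher and 5 lower with indisulam, 2 higher and 2 lower with SPHINX31 and 5 higher and 8 lower with the combination. The share with indisulam was near that of all tested genes, and the list medians were 0.04, -0.05 and -0.07. PLGRKT, a plasminogen receptor, had 25.6 and 27.7 CPM in untreated and 11.4 and 12.2 in indisulam libraries (-1.17, adjusted p = 1.53e-07) and was also lower with the combination (-1.24, adjusted p = 5.2e-08). GGCX, the carboxylase that modifies prothrombin, protein C and protein S, had 47.0 and 46.4 CPM in untreated and 20.9 and 19.3 in combination libraries (-1.22, adjusted p = 6.28e-09). F2RL2, a thrombin receptor, had 2.83 and 2.67 against 8.36 and 8.35 CPM (1.60, adjusted p = 3.52e-08).

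Of 33 further acute phase and plasma protein genes 15 were tested, with 4 higher and 3 lower with indisulam, 1 higher and 1 lower with SPHINX31 and 5 higher and 2 lower with the combination. The shares with indisulam and the combination were near those of all tested genes, and the list medians were 0.32, 0.11 and 0.16. AGT, angiotensinogen, had 2.72 and 2.63 CPM in untreated, 6.96 and 5.13 in SPHINX31 and 7.03 and 7.13 in combination libraries (1.17, adjusted p = 0.000626, and 1.40, adjusted p = 7.05e-06).

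Among 36 genes of the cytokines, receptors and transcription factors that drive acute phase genes 33 were tested. With indisulam 8 were higher and 2 lower, with SPHINX31 8 higher and none lower (none with DESeq2 either, and 13 higher and 3 lower at an unadjusted p under 0.05), and with the combination 14 higher and 4 lower. Of all tested genes 20.1% were higher and 23.5% lower with indisulam, 4.94% and 3.67% with SPHINX31 and 23.8% and 26.3% with the combination, and the list medians were 0.11, 0.07 and 0.10. STAT3 and C/EBP factors, whose letters were searched in the promoters, had the following values. STAT3 was between 141 and 157 CPM and its log2 fold changes against untreated cells were between -0.07 and 0.05. CEBPB was between 50.7 and 80.8 CPM and rose with SPHINX31 (0.40, adjusted p = 0.00999) and the combination (0.27, adjusted p = 0.0156). CEBPD rose with the combination alone among the comparisons with untreated cells (0.36, adjusted p = 0.0397), and CEBPA passed in none of them. IL6, singled out after its values were seen, had 4.06 and 4.46 CPM in untreated, 3.41 and 3.55 in indisulam, 9.03 and 7.56 in SPHINX31 and 3.46 and 3.76 in combination libraries. It was higher with SPHINX31 alone (0.96, adjusted p = 0.00021), and the part of any of these regulators in the member values was not tested.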

How the data were processed

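RNA-seq was analysed from 8 libraries of A549 cells in 4 groups of 2 technical replicates, grouped by their labels. The authors deposited raw read counts per gene, and the submitters' processing notes name HISAT2 2.2.1, HTSeq and GRCh38. The strand setting and the annotation release are not given in the sources used here. Rows of reads without a gene, which leave 82.96% to 86.0% of the recorded reads on genes, were kept out of library sizes. Gene counts per library had a median of 57337791, and counts of each duplicate pair differed by more than counting error (chi-square per degree of freedom 6.6 to 10.7).

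Genes were filtered with filterByExpr and tested on counts with edgeR 4.0.16 (R 4.3.3, TMM scaling, 1 quasi-likelihood fit over the 4 groups with 4 residual degrees of freedom). Alternatives were DESeq2 1.42.0, scaling by total counts alone, other filters, a fit of only the groups compared, GC correction, a replicate block and leaving out each library. The scripts were tested on simulated data. Gene symbols, positions and exon lengths came from GENCODE release 44, in which 99.7% of the tested genes were found, and promoter sequences from RefSeq.

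Members and lists were chosen with earlier results of these data known. Members were given in full where they passed against untreated cells by 0.58 or more on the log2 scale in either direction, or passed in the combination against indisulam (FGA, FGB, FGG, C1R, C1S, C5, F2, PROC and TFPI2). Genes of the pathway lists were named from a log2 change of 1 in either direction and a mean of 1 CPM, and STAT3 and C/EBP factors were named whatever their values. Some genes that these rules name, and a promoter motif, are not reported here. Of genes near identical copies, counts are uncertain.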

Additional observations from a re-analysis of the deposited data

Results flagged for a closer look

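Reads that fell on no annotated feature, which enter no comparison above, took on average 4.99% of the recorded reads in indisulam and 5.37% in combination libraries, above the 3.94% to 4.34% of the untreated libraries. In the SPHINX31 libraries the share was 3.67% to 3.93%.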

How the results depend on the processing

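No result changed direction while called. In the single-member results, 2683 values stayed on the same side of the threshold, 83 lost and 50 gained a call, and 149 uncalled values changed sign. Among all tested genes, a GC correction called 3038 with SPHINX31 against 1606, or 2719 with the replicate block, and moved the split from 921 higher and 685 lower to 992 and 2046, while total counts gave 1341 and 515. For the combination against indisulam it called 2717 against 1399, or 2435 with the block, with the split moving from 592 and 807 to 717 and 2000, and total counts gave 942 and 498. Scaling by total counts alone called 7 members there against 4. The interaction called 31 genes with DESeq2, 94 when each gene with at least 1 count was tested, when 1 member passed, and 21 with the GC correction. Without single libraries, members called ranged from 11 to 15 with indisulam, 3 to 7 with SPHINX31, 9 to 18 with the combination, 3 to 5 for the combination against indisulam, 12 to 16 against SPHINX31 and 0 to 0 for the interaction. All genes called ranged from 5887 to 8379, 482 to 1810, 7209 to 9565, 440 to 1612, 7340 to 9523 and 0 to 1 in the same order. The count with SPHINX31 was 482 without untreated replicate 1, 539 without untreated replicate 2 and 697 without SPHINX31 replicate 1. That for the combination against indisulam was 440 without combination replicate 2, 609 without combination replicate 1 and 696 without indisulam replicate 1. The cause of these changes was not tested. Deviations of same-numbered libraries were correlated between groups over 8228 genes. The correlation was -0.609 for untreated and indisulam, -0.53 for indisulam and SPHINX31 and 0.483 for untreated and SPHINX31 libraries. With the combination libraries it was between 0.0332 and 0.203. The numbers thus did not pair the libraries in the same way across groups, and whether groups share a batch was not tested. With the replicate block 16, 5, 17, 5, 16 and 0 members and 7851, 1330, 9077, 1169, 9074 and 0 genes passed in the same order. With the block SERPINA1 also passed with indisulam (adjusted p = 0.0233) and the combination (adjusted p = 0.0211) and TFPI2 in the combination against indisulam (adjusted p = 0.0482), while TFPI with SPHINX31 (adjusted p = 0.0568) and APOH with the combination (adjusted p = 0.0571) were lost. A block with the numbers of the indisulam libraries exchanged, chosen after seeing the data, called 2252 genes for the combination against indisulam and 12 for the interaction. Low counts limit the 7 members under the filter and TF, with at most 13 counts.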
